A study of Zea mays with 24 samples.

Results

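Seedlings of the maize inbred line Han21 that had been under severe drought were compared with watered control seedlings of the same line. The comparison rests on 6 of the 24 arrays of the series, the 3 titled severe drought and the 3 titled control, and the groups were taken from these titles. All plants were seedlings at the three-leaf stage, and no transgene or other allele is named for them. The comparison is set beside the 3 Han21 arrays of moderate drought, the 3 Han21 arrays after re-watering and the 6 control and severe drought arrays of Ye478, the other inbred line of the study. Transcripts were measured as signal intensities on an Affymetrix maize array, a chip with short DNA probes grouped into probe sets. The labels name the tissue as shoot, whereas the protocol for RNA extraction speaks of mesocotyls, the stem segment between seed and first node. They give no soil water content and no length of drought. The arrays are titled as biological replicates, but the series describes 2 independent experiments and nothing says whether plants were pooled, so the p-values measure the spread between these samples. In RNA from a tissue of mixed cells, fewer cells of a type and less RNA per cell cannot be told apart.

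The median signal was 162.9 to 191.1 units on the 6 arrays, and arrays of a group correlated at 0.915 to 0.977 on the log2 scale across the brighter probe sets. Arrays with the same replicate number deviated together from their group means (correlations of 0.379 to 0.565 across probe sets, against -0.403 to 0.0869 between different numbers). Deviations within a group cancel out, so positive values for the same number push those for different numbers down. Markers of green shoot such as photosystem and carbon fixation genes were above the filter level, described below, on all 6 arrays for 9 of 9 genes, with summed signals of 52451 to 66766 units in control and 36977 to 43784 in severe drought. Of 10 kernel markers 9 were under that level on all 6 arrays, with sums of 302 to 342.6 units in control and 220.6 to 274.8 in severe drought. The exception was bt2. All 3 markers of meristem and inflorescence, with sums of 16.31 to 66.27 and 18.91 to 53.12 units, were under it in control and in severe drought. So were the root markers mir1 and nrt2, with sums of 22.03 to 41.38 and 13.09 to 22.99 units. Root forms of the tip2 channel genes had been planned as root markers too but were not counted. One tip2 gene, tip2a, was above the level on all control arrays, so the counted markers do not settle whether root tissue was present. Of 7 pairs of control probe sets at the 3' and 5' ends of a transcript, which follow RNA integrity, 2 had a lower and 5 a higher mean log2 ratio in severe drought. The part of RNA integrity in the results below was not tested.

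When a leaf loses water, abscisic acid (ABA) accumulates, stomata close, and transcription factors of the bZIP and DREB families switch on genes for protective proteins. Among these are dehydrins and other late embryogenesis abundant (LEA) proteins, hydrophilic proteins that also fill drying seeds, together with chaperones and enzymes that detoxify reactive oxygen. Growth by cell division and wall extension and the building of the photosynthetic apparatus are known to slow under water shortage, while sugars and amino acids are rerouted into storage, osmotic adjustment and nitrogen recycling.

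Of 12111 probe sets above the filter level, 6968 (57.5%) differed between severe drought and control at an adjusted p under 0.05, 3490 of them higher (28.8%) and 3478 lower (28.7%). A change of 2-fold or more was called for 2950 (24.4%), 1212 higher and 1738 lower, and one of 16-fold or more for 57 higher and 104 lower. The ranges of the 2 groups were apart, with no overlap between their 3 arrays each, for 7372 probe sets (60.9%). The filter level is the 40th percentile of an array, 77.5 to 106.8 units on the 6 arrays. On all control arrays 362 probe sets lay under it that lay above it on all severe drought arrays, and 312 of these were called higher. The reverse held for 443, of which 443 were called lower. Changes are given as log2 fold changes of signal plus 4.56 units, with the standard error from a model of all arrays. Signals are given per array in the order of replicates 1 to 3, or as mean ± SD, n = 3 in each group. For severe drought against control, where all 3 arrays of a group lay under the filter level, an "at least" fold is given against that level in place of a log2 change. No fold is given where both groups did. The later comparisons, with moderate drought, re-watering and Ye478, give log2 differences for such genes too. The size of those differences depends on signals under the level. The plot of all tested probe sets shows both tails of the distribution.

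**Figure D1:**
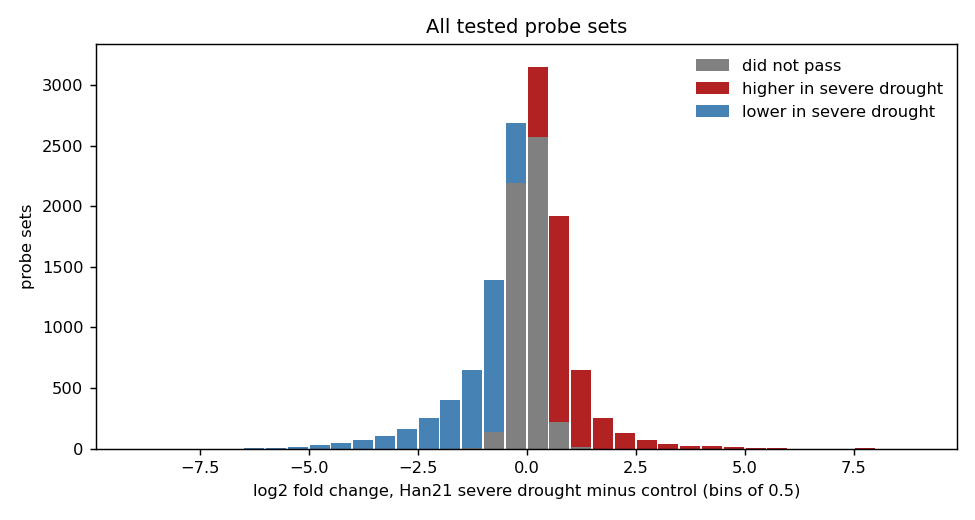
Number of tested probe sets (vertical axis) by log2 fold change between Han21 severe drought and control (horizontal axis, bins of 0.5). Red bars are the 3490 called higher, blue bars the 3478 called lower and grey bars the 5143 that did not pass.

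Only a small part of these probe sets carries a gene name. Of 767 tested genes with an informative symbol, each represented by its brightest probe set, 210 rose, 276 fell and 281 did not pass, with a median log2 change of -0.05, against 0.03 over all tested probe sets. Genes were grouped into lists by function, and each list's counts are to be read against these shares.

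Genes for dehydrins and other LEA proteins were among the largest rises. Signals of mlg3, for a LEA protein, were 31.2, 45.8 and 7.11 units in control and 6170, 4847 and 6695 in severe drought. Each control array lay under the filter level, and the gene was at least 59-fold higher in severe drought (adjusted p = 2.97e-10). The dehydrin gene dhn1, known as an ABA-responsive gene, went from 430.4, 1915 and 326 units to 12324, 19385 and 9553, a log2 change of 4.34 ± 0.60 (adjusted p = 2.58e-06). Control replicate 2 was higher than the other two controls, yet lay below every severe drought array. A further dehydrin gene, dhn2, had control signals of 254, 307 and 234 units and severe drought signals of 4833, 5270 and 4690. Its groups were far apart and each was tight, with a log2 change of 4.20 ± 0.18 (adjusted p = 1.25e-13), and its probe sets gave 3.94 to 4.85. The embryo LEA gene esp5 went from 4.52, 12.5 and 5.29 to 126, 39.7 and 72.5 units and was called higher (adjusted p = 5.29e-05), but 2 of its severe drought arrays were under the filter level and no fold is given. All 4 tested dehydrin and LEA genes rose, with a median log2 change of 4.27 (4.27 with mlg3 at its bound).

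Of 11 genes for seed storage and oil-body proteins on the array 5 were tested, and 3 of these rose, 1 fell and 1 did not pass. The 6 untested genes, glb2, glb3 and 4 zeins, were too dim. The embryo gene esp1 had signals of 12.6, 14.1 and 8.47 units in control and 3066, 1983 and 3341 in severe drought, at least 27.5-fold higher (adjusted p = 7.35e-10). For glb1, which encodes an embryo storage globulin, the signals were 5.43, 15.9 and 2.96 and 963, 1032 and 1403 units, at least 11.3-fold higher (adjusted p = 1.81e-10). Both genes were thus under the filter level in every control plant sample and well above it in every severe drought sample. Signals of per-1, for a peroxiredoxin of embryo and aleurone, were 1.45, 4 and 3.06 in control and 74.4, 36.9 and 83.8 in severe drought; the difference was called (adjusted p = 3.44e-08), with 2 of the severe drought arrays still under the level. The oil-body protein gene ole1 (2.71 ± 0.542 and 5.15 ± 1.66 units, adjusted p = 0.39) stayed under the level in both groups. The zein gene gz27 was also under it in both, at 70.7 ± 17.3 in control and 39.8 ± 6.9 in severe drought (adjusted p = 0.0219). That call was lost under quantile normalization (adjusted p = 0.439) and without control replicate 1 (0.0908), control replicate 3 (0.0703), severe drought replicate 1 (0.0594) or severe drought replicate 2 (0.0703). The median of the list was 3.18 as fitted and 0.00 with genes under the level set at their bound.

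**Figure D2:**
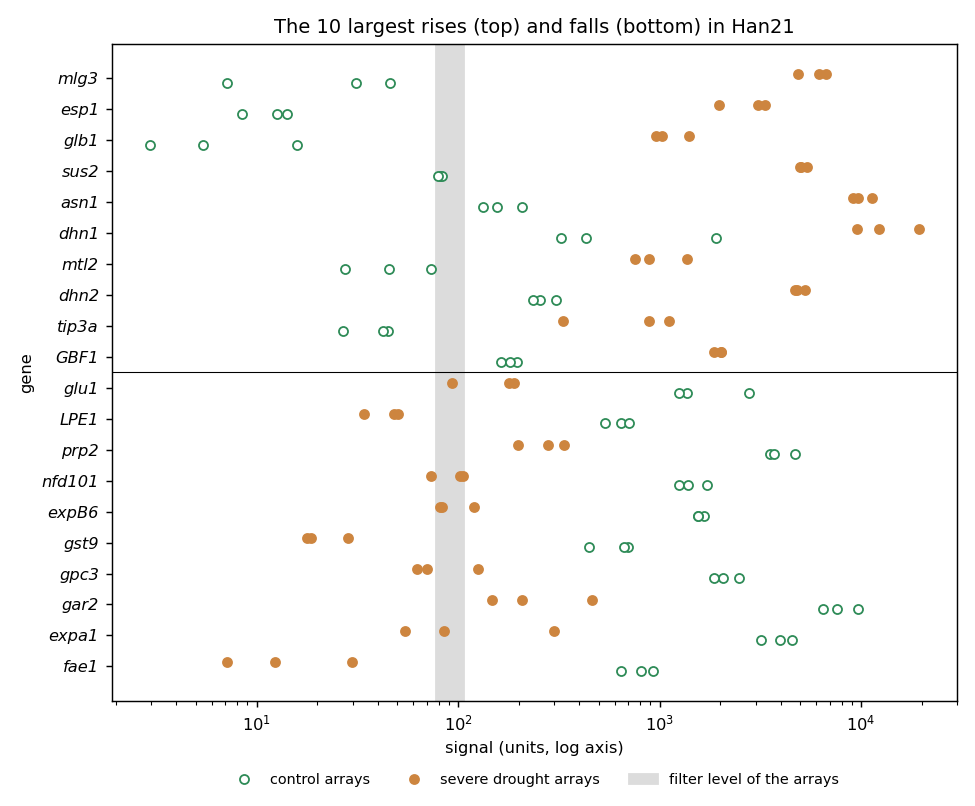
Signal (horizontal log axis, units) on each array of the 10 genes with the largest rises and the 10 with the largest falls. They were chosen from these values among called genes whose group ranges were apart, so the lack of overlap in all 20 genes is fixed by the choice. Open green circles are the 3 control arrays, brown circles the 3 severe drought arrays and the grey band the filter level of 77.5 to 106.8 units.

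Among heat shock proteins and chaperones 9 of 23 genes rose, 4 fell and 10 did not pass (median log2 change 0.01). Those that rose included small heat shock proteins and HSP101, and chaperones of the endoplasmic reticulum were among those that fell. The gene hsp101, for a disaggregase that rescues clumped proteins, had signals of 142, 138 and 163 units in control and 1359, 1324 and 1635 in severe drought, a log2 change of 3.24 ± 0.21 (adjusted p = 3.75e-11). The small heat shock protein genes hsp18, whose synonym is hsp26, and hsp18f were under the filter level in every control array, at 6.78 ± 4.69 and 22.6 ± 2.73 units. In severe drought they reached 179 ± 47.3 and 139 ± 43.9 units, at least 1.76-fold (adjusted p = 2.29e-10) and 1.35-fold higher (adjusted p = 7.37e-08). The related gene hsp18a rose by 1.81 ± 0.26 (adjusted p = 5.28e-06), and the heat shock factor gene hsfb rose by 0.75 ± 0.12 (adjusted p = 1.89e-05). Signals of crt2, for the calcium-binding chaperone calreticulin, were 2240, 1654 and 1749 units in control and 1045, 568 and 467 in severe drought, a log2 change of -1.51 ± 0.23 (adjusted p = 1.08e-05). For bip1, an HSP70 of the endoplasmic reticulum, the change was -1.01 ± 0.19 (adjusted p = 8.73e-05), and the disulfide isomerase genes pdi5 and pdi7 changed by -0.64 ± 0.18 and -0.42 ± 0.10 (adjusted p = 0.0043 and 0.00138). The call of pdi5 was lost without replicate 3 of both groups (adjusted p = 0.0756).

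Among genes listed for carotenoid and ABA synthesis, vp14, BCH2 and the aldehyde oxidase gene AO1 were higher. A gene for the enzyme at the entry of the carotenoid pathway was lower. In control vp14, which encodes the dioxygenase that cleaves epoxycarotenoids and sets the rate of ABA synthesis, had signals of 84.7, 96.9 and 62.9 units. In severe drought these were 345, 436 and 362, a log2 change of 2.18 ± 0.29 (adjusted p = 1.81e-06), with no overlap between the groups. BCH2, for the hydroxylase that turns beta-carotene into zeaxanthin, went from 1502, 1463 and 1531 to 4379, 5277 and 5005 units, a log2 change of 1.70 ± 0.10 (adjusted p = 1.05e-11). The aldehyde oxidase gene AO1 was at 44.8 ± 7.68 units in control, under the level, and 113 ± 20 in severe drought, at least 1.13-fold higher (adjusted p = 0.000157). In contrast psy2, for phytoene synthase, fell from 147, 234 and 228 to 42.4, 37.9 and 22.1 units, at least 2.48-fold (adjusted p = 2.61e-06). The desaturase genes pds1 (0.18 ± 0.12, adjusted p = 0.232) and vp9 (-0.23 ± 0.18, adjusted p = 0.285) did not pass, though pds1 did without replicate 3 of both groups (0.0466). In all, 3 of 6 tested genes rose and 1 fell, with a median of 0.71 as fitted and 0.17 with bounds.

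Of 5 genes placed by symbol in the list for ABA signalling 3 rose and 1 fell (median 0.99). The part of each in ABA signalling was not tested. GBF1, for a bZIP factor that binds G-box elements, had control signals of 195, 164 and 181 units and severe drought signals of 1853, 2021 and 2009. The change of 3.42 ± 0.18 (adjusted p = 2.91e-12) was large against the spread within either group. The AP2-type factor gene dbf1, whose product binds drought-responsive elements, went from 954, 584 and 629 to 2910, 2482 and 2927 units, a log2 change of 1.96 ± 0.22 (adjusted p = 1.49e-07). PP2C, for a type 2C protein phosphatase, rose by 0.99 ± 0.18 (adjusted p = 6.42e-05), whereas pp2c-1 was at 673 ± 90.3 units in control and 687 ± 55.6 in severe drought (adjusted p = 0.864). The related factor gene dbf2 fell from 119.6 ± 10 to 70.1 ± 17.4 units (adjusted p = 0.0192). That call was lost under quantile normalization (adjusted p = 0.132), without control replicate 2 (0.0627) and without severe drought replicate 2 (0.108).

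Aquaporins, the channels that carry water and small solutes across membranes, fell more often than they rose: 12 of 25 tested genes fell, 5 rose and 8 did not pass, with a median log2 change of -0.43 (-0.16 with bounds). The vacuolar channel gene tip3a, otherwise known from seeds, stood apart from all the others. Its signals were 45.1, 26.8 and 42.2 units in control and 331, 885 and 1108 in severe drought, at least 6.93-fold higher (adjusted p = 1.8e-06). Severe drought replicate 1 was the lowest of its group but above every control. The other four that rose did so by less than 1 on the log2 scale: sbip1a by 0.65 ± 0.10 and the plasma membrane channel gene PIP1-1 by 0.53 ± 0.12 (adjusted p = 1.41e-05 and 0.000578), pip1e by 0.63 ± 0.23 and nip3a by 0.58 ± 0.21 (adjusted p = 0.0211 and 0.0209). The last calls depended on single arrays. For pip1e the adjusted p was 0.0613 without control replicate 1, 0.0522 without control replicate 2 and 0.141 without severe drought replicate 3. For nip3a it was 0.0578 without control replicate 2, 0.091 without control replicate 3, 0.0583 without severe drought replicate 1 and 0.0845 without severe drought replicate 3.

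The silicon channel gene Lsi6 had the largest fall of the aquaporins, from 1317, 887 and 1023 to 156, 154 and 137 units, a log2 change of -2.80 ± 0.27 (adjusted p = 1.67e-08). Its relative Lsi1 went from 914, 636 and 581 to 188, 183 and 79.7 units, -2.27 ± 0.29 (adjusted p = 7.58e-07). The vacuolar channel gene tip2a changed by -2.34 ± 0.32 (adjusted p = 2.59e-06), and its control replicate 1, at 2068 units, was above the other two at 1003 and 771. For nip1a the change was -1.71 ± 0.16 (adjusted p = 7.78e-09). In none of these genes did the groups overlap. Group ranges were apart for 19 of the 25 tested aquaporin genes, and for 497 of the 767 tested genes with an informative symbol.

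In sucrose metabolism a gene for making sucrose fell, a wall invertase gene rose, and sucrose synthase genes moved in opposite directions. Sucrose synthase splits sucrose into fructose and UDP-glucose. Of its genes, sus2 had control signals of 81, 83.2 and 79.5 units and severe drought signals of 4980, 5019 and 5410, at least 51.7-fold higher (adjusted p = 7.92e-16), and sh1 rose from 2900, 2382 and 2359 to 8148, 10871 and 9527 units by 1.90 ± 0.12 (adjusted p = 3.12e-11). Their relative sus1 went the other way, from 6470, 6023 and 4892 to 2549, 1808 and 1240 units, a log2 change of -1.68 ± 0.27 (adjusted p = 2.14e-05). In control plants sus1 was thus bright and sus2 near the filter level, and in severe drought plants sus2 was bright, although signals of different probe sets are not on a common scale. The gene for sucrose phosphate synthase, sps1, fell from 1862, 1694 and 1989 to 246, 327 and 175 units, a log2 change of -2.91 ± 0.21 (adjusted p = 1.92e-10). The fructokinase gene frk2 changed by -2.96 ± 0.21 (adjusted p = 1.15e-10), the sucrose transporter gene sut1 by -0.75 ± 0.20 (adjusted p = 0.00259) and the hexose transporter gene mstr1 by -0.85 ± 0.21 (adjusted p = 0.00159). The cell wall invertase gene incw1 rose by 1.11 ± 0.21 (adjusted p = 0.000136). Over the list, 3 of 10 genes rose and 5 fell (median -0.25).

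Of 8 starch genes 1 was higher and 3 were lower (median -0.42). The beta-amylase gene amy5 fell from 1498, 1797 and 1676 to 286, 328 and 166 units, -2.70 ± 0.32 (adjusted p = 3.19e-07), and GLG1, for a subunit of the enzyme that makes ADP-glucose, from 2177, 1798 and 1893 to 729.7, 740.1 and 545 units, -1.54 ± 0.14 (adjusted p = 6.91e-09). The starch synthase gene ss1 rose by 0.88 ± 0.16 (adjusted p = 6.55e-05). The branching enzyme gene sbe1 changed by -0.47 ± 0.19 (adjusted p = 0.0379), a call lost with no filter (0.0501) and without control replicate 1 (0.207), severe drought replicate 1 (0.0672), 2 (0.063) or 3 (0.0905). Signals of AGA1, for an alkaline alpha-galactosidase that breaks down raffinose sugars, were 93.1, 159.6 and 131 units in control and 310.3, 425 and 1490 in severe drought. Severe drought replicate 3 carried much of its log2 change of 2.18 ± 0.76 (adjusted p = 0.0179). Without that array the adjusted p was 0.122, and without control replicate 1 it was 0.0586.

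All 10 tested genes of amino acid and nitrogen metabolism passed, 3 rising and 7 falling (median -0.97). The asparagine synthetase gene asn1, whose product makes the nitrogen-rich transport amino acid asparagine, had signals of 157, 207 and 133 units in control and 9170, 11269 and 9666 in severe drought. This was a log2 change of 5.90 ± 0.19 (adjusted p = 2.08e-15), and its probe sets gave 5.03 to 5.90. The lysine breakdown gene lkrsdh1 rose from 381, 286 and 336 to 2979, 3030 and 2734 units, 3.12 ± 0.15 (adjusted p = 7.25e-13). Glutamine synthetase, which fixes ammonium, has cytosolic and plastid forms. The cytosolic form gene gln2 rose from 154, 72.7 and 71.5 to 573, 506 and 538 units, 2.47 ± 0.28 (adjusted p = 1.78e-07), while the plastid form gene gln1 fell from 2212, 1864 and 1790 to 721, 524 and 413, -1.85 ± 0.19 (adjusted p = 2.8e-08). A further member, gln3, fell from 267 ± 122 to 66.3 ± 31.2 units (adjusted p = 0.000161). NNR1, for nitrate reductase, went from 1431, 1180 and 1626 to 260.1, 136 and 133 units, a log2 change of -3.03 ± 0.26 (adjusted p = 2.5e-09). The nitrite reductase gene NIR changed by -0.71 ± 0.20 (adjusted p = 0.0037, and 0.0699 without replicate 3 of both groups) and the glutamate dehydrogenase gene gdh1 by -1.23 ± 0.13 (adjusted p = 7.88e-08).

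Genes against reactive oxygen and metals were split, with 6 of 17 higher and 5 lower (median 0.24). The metallothionein-like gene mtl2 went from 27.4, 73.4 and 45.2 to 889.9, 756 and 1375 units, at least 9.82-fold higher (adjusted p = 3.51e-11). Its probe set may also bind transcripts of other genes, a limit shared by 10 of the 164 genes named here. The ferritin gene fer2, for the iron store of plastids, rose by 1.54 ± 0.14 (adjusted p = 5.98e-09). Catalase genes moved apart: cat1 rose from 1760, 2108 and 1957 to 3961, 5058 and 4310 units, 1.19 ± 0.11 (adjusted p = 1.4e-08), and cat2 fell from 1104, 662 and 727 to 380.2, 395 and 422, -1.01 ± 0.20 (adjusted p = 0.00023). The peroxidase gene PER42 changed by -1.27 ± 0.22 (adjusted p = 4.94e-05), and pox1 was at least 2.09-fold lower (adjusted p = 0.000479). Smaller falls were called for the ascorbate peroxidase gene apx (-0.36 ± 0.12, adjusted p = 0.0149) and the alternative oxidase gene aox2 (-0.78 ± 0.27, adjusted p = 0.0188). Neither was stable to single arrays. The adjusted p of apx was 0.0559 without control replicate 2 and 0.0933 without severe drought replicate 3. That of aox2 was 0.0811 under quantile normalization, 0.0679 and 0.0706 without control replicates 1 and 3, and 0.0781 without severe drought replicate 2.

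Glutathione S-transferases, which attach glutathione to toxins and peroxides, passed in 23 of 28 cases, 10 rising and 13 falling (median -0.47, and -0.20 with bounds). The largest rise was that of gst23, from 313, 267 and 259 to 2291, 2360 and 2052 units, a log2 change of 2.98 ± 0.18 (adjusted p = 1.07e-11). At the other end gst9 went from 694, 663 and 444 to 28.3, 18.7 and 17.7 units, at least 7.35-fold lower (adjusted p = 1.37e-11). GST26 was at least 2.27-fold lower (adjusted p = 1.5e-07), and gst11 and gst10 changed by -1.77 ± 0.19 and -1.41 ± 0.16 (adjusted p = 6.26e-08 and 1.83e-07). For sat1, the serine acetyltransferase at the start of cysteine synthesis, signals were 385, 359.6 and 389 units in control and 1752, 1993 and 3214 in severe drought, 2.55 ± 0.22 (adjusted p = 3.39e-09). The malate synthase gene mas1, of the glyoxylate cycle, rose by 2.46 ± 0.24 (adjusted p = 1.47e-08).

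Of 5 genes for wound-induced and pathogenesis-related proteins 3 rose and 2 did not pass (median 2.12). The proteinase inhibitor gene wip1 had signals of 59.4, 102 and 39.6 units in control and 561, 677 and 703 in severe drought, a log2 change of 3.27 ± 0.32 (adjusted p = 2.28e-08). The chitinase gene chn1 rose by 2.74 ± 0.29 (adjusted p = 6.26e-08) and sip1 by 2.12 ± 0.17 (adjusted p = 9.62e-10). The values were 167, 239.7 and 457 units in severe drought and 163, 232 and 210.5 in control for pr5 (adjusted p = 0.476), which overlap, and prp4 was under the filter level in both groups (adjusted p = 0.262).

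Genes of wall growth fell together. Of 24 tested genes for expansins, cellulose synthases and wall enzymes 22 fell and 2 rose, with a median log2 change of -2.15 (-1.96 with bounds). Group ranges were apart for 23 of them, against 497 of the 767 tested genes with an informative symbol. Expansins loosen the wall for cell enlargement. The signals of expa1 were 4562, 3961 and 3171 units in control and 298, 85.1 and 54.6 in severe drought, a log2 change of -5.04 ± 0.49 (adjusted p = 1.94e-08). Severe drought replicate 1 was the highest of its group, but all 3 were far below control. Signals of expB6 went from 1661, 1550 and 1556 to 120.1, 81.3 and 83.6 units, -4.02 ± 0.24 (adjusted p = 9.39e-12). Cellulose synthases of secondary walls were also low: cesa10 went from 1234, 956 and 1238 to 203, 98.5 and 118 units, -3.05 ± 0.21 (adjusted p = 1.43e-10), and cesa11 and CesA12 changed by -3.37 ± 0.32 and -2.81 ± 0.20 (adjusted p = 1.03e-08 and 1.76e-10). The COBRA-like gene bk2, which rice and maize mutants tie to stalk strength, changed by -2.93 ± 0.19 (adjusted p = 4.09e-11). Among the synthases of primary walls CesA-1 changed by -2.41 ± 0.13 and cesa2 by -2.35 ± 0.15 (adjusted p = 3.06e-12 and 4.09e-11). The 2 genes that rose were xet1, for an enzyme that cuts and rejoins xyloglucan, from 689, 443 and 514 to 1226, 1316 and 1683 units (1.36 ± 0.19, adjusted p = 3.48e-06), and cesa5, from 1255, 1063 and 1099 to 2479, 2399 and 2086 (1.02 ± 0.13, adjusted p = 9.51e-07).

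In the cytoskeleton list 15 of 20 genes fell and 5 did not pass (median -1.31, and -0.91 with bounds). Tubulins form the microtubules that guide cellulose deposition and chromosome movement. The alpha-tubulin gene tua5 fell from 3280, 2907 and 3181 to 717, 510.4 and 525 units, -2.42 ± 0.13 (adjusted p = 2.02e-12). The beta-tubulin genes tub5 and TUBB2 changed by -2.66 ± 0.25 and -2.66 ± 0.21 (adjusted p = 1.31e-08 and 8.56e-10), with severe drought replicate 1 of tub5, at 830.2 units, above the other two at 366 and 476. The kinesin gene krp6, for a microtubule motor, went from 575, 598 and 622 to 73, 48.8 and 77.9 units, at least 7.47-fold lower (adjusted p = 1.37e-10).

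In DNA replication and the cell cycle 6 of 11 genes fell, 1 rose and 4 did not pass (median -0.61, and 0.00 with bounds); with the replicate number as a block 3 rose and 6 fell. PCNA is the sliding clamp of DNA polymerase. Its gene pcna2 went from 542, 485 and 536 to 105, 58.2 and 70.3 units, a log2 change of -2.71 ± 0.20 (adjusted p = 3.1e-10), and pcna1 from 754, 582 and 567 to 351, 362 and 355, -0.81 ± 0.13 (adjusted p = 1.29e-05). The helicase genes MCM6 (77, 52.9 and 111 units in control, 17.2, 7.35 and 9.14 in severe drought, adjusted p = 6.81e-07) and MCM7 (71.1, 78.3 and 96.5 and 2.37, 12.9 and 2.12, adjusted p = 5.78e-08) were called lower, but nearly all of these signals lay under the filter level and no fold is given. The recombinase gene rad51a was at least 1.12-fold lower (adjusted p = 0.000148). The cyclin gene cycD2 was the member that rose, from 1234, 1065 and 969.6 to 2334, 2372 and 2612 units, 1.16 ± 0.15 (adjusted p = 9.64e-07).

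Of 5 histone genes 4 fell and 1 did not pass (median -0.56, and -1.60 over all their probe sets). The histone H2B gene his2b5 went from 618, 518 and 687 to 73, 43.1 and 47.7 units, at least 7.53-fold lower (adjusted p = 6.91e-07), and his1 changed by -1.60 ± 0.19 (adjusted p = 3.32e-07). The centromeric histone gene cenH3 (-0.53 ± 0.19, adjusted p = 0.0197) and the linker histone gene his1a (-0.56 ± 0.19, adjusted p = 0.0143) fell less. For cenH3 the adjusted p was 0.0776 without control replicate 3 and 0.124 without severe drought replicate 2. For his1a it was 0.0562 and 0.081 without control replicates 1 and 2, and 0.067 without severe drought replicate 3. The linker histone gene hon101 was at 3478 ± 849 units in control and 4415 ± 1567 in severe drought (adjusted p = 0.183, and 0.0322 with the replicate block). Without control replicate 2 its adjusted p was 0.0438, and without severe drought replicate 1 it was 0.0257. The gene nfd101, for an HMG-type chromatin protein, fell from 1242, 1718 and 1380 to 106, 73 and 102 units, -3.89 ± 0.32 (adjusted p = 1.79e-09).

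Further strong falls were found in genes outside the lists. Signals of gar2 went from 7564, 9709 and 6493 to 462, 207 and 148 units, -4.98 ± 0.36 (adjusted p = 2.07e-10), and those of prp2 from 3526, 4688 and 3701 to 334, 197 and 278, -3.88 ± 0.31 (adjusted p = 8.11e-10).

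Of 9 genes for membrane lipids, surface wax and lipid signalling 6 fell, 2 rose and 1 did not pass (median -0.96). The fatty acid elongase gene fae1 had signals of 809, 647 and 925 units in control and 29.6, 7.13 and 12.3 in severe drought, at least 9.8-fold lower (adjusted p = 1.65e-12). The desaturase genes FAD8 and fad7, which make the trienoic fatty acids of chloroplast membranes, changed by -2.17 ± 0.16 and -2.45 ± 0.25 (adjusted p = 2.93e-10 and 2.65e-08). The wax genes gl1 and gl8 changed by -1.84 ± 0.19 and -0.96 ± 0.12 (adjusted p = 4.3e-08 and 5.09e-07). PLD1, for the phospholipase D that releases phosphatidic acid, rose from 169, 239 and 302 to 836, 768 and 1019 units, 1.89 ± 0.20 (adjusted p = 4.68e-08). The acetyl-CoA carboxylase gene ACC1 rose by 0.62 ± 0.21 (adjusted p = 0.0135, but 0.0593 without replicate 1 and 0.0702 without replicate 2 of both groups).

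The list for auxin, gibberellin and cytokinin had 9 of 23 genes higher and 8 lower (median 0.10, and 0.00 with bounds). Type-A response regulators are induced by cytokinin and dampen its signal. RR5 fell from 555, 540.3 and 503 to 93.5, 116 and 95.4 units, -2.35 ± 0.17 (adjusted p = 2.26e-10). RR6 was at least 2.08-fold and crr1 at least 1.57-fold lower (adjusted p = 4.59e-09 and 5.87e-09), and RR7, at 85.9 ± 6.61 and 7.87 ± 4.22 units, was called lower with both groups under the filter level (adjusted p = 2.91e-06). RR8, of the type-B regulators that act as transcription factors, rose from 309, 266 and 348 to 905, 1052 and 1285 units, 1.79 ± 0.19 (adjusted p = 4.77e-08). So did cko2, for the oxidase that degrades cytokinins, from 168, 186 and 165 to 554, 468 and 522, 1.54 ± 0.21 (adjusted p = 2.25e-06).

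**Figure D3:**
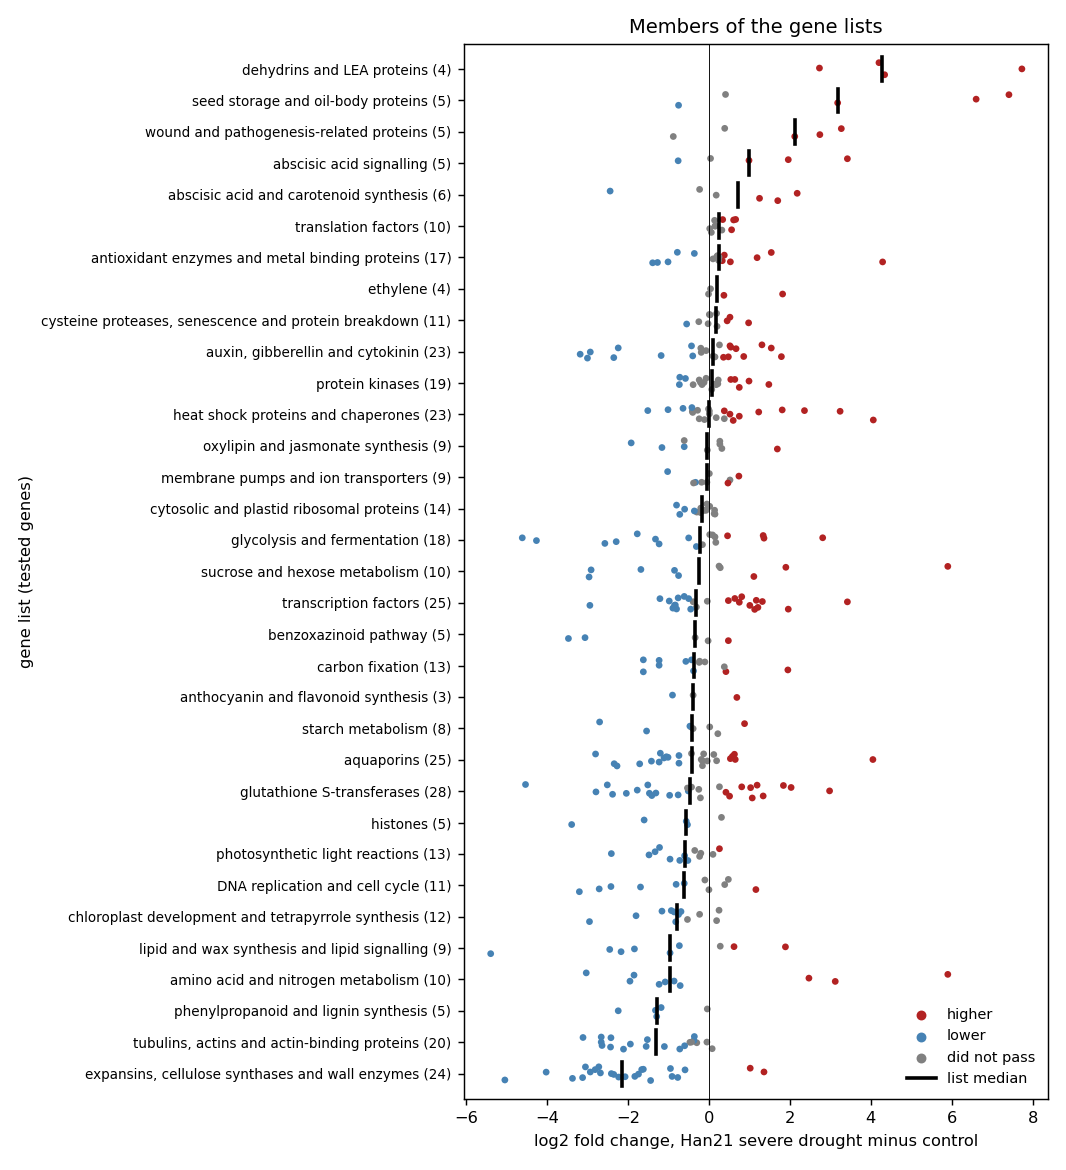
Log2 fold change between Han21 severe drought and control (horizontal axis) of the tested members of each gene list with at least 3 of them (vertical axis, number in brackets). Points are genes, red where higher, blue where lower and grey where they did not pass, and the black bar is the list's median, from 4.27 for dehydrins and LEA proteins to -2.15 for wall genes.

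Of 13 genes of the light reactions 8 fell, 1 rose and 4 did not pass (median -0.60). The antenna gene lhcb6, of the minor light-harvesting complex of photosystem II, fell from 4531, 4451 and 5035 to 1064, 799 and 779.8 units, -2.41 ± 0.23 (adjusted p = 9.88e-09), with probe sets from -2.41 to -1.72. The photosystem I gene psad1 changed by -1.33 ± 0.15 (adjusted p = 1e-07) and the ferredoxin gene fdx2 by -1.48 ± 0.23 (adjusted p = 1.04e-05). The member that rose, the ferredoxin gene fdx3, changed by 0.26 ± 0.09 (adjusted p = 0.0196). Its call was lost with median centring (0.13), with only the 6 arrays fitted (0.133), and without control replicate 3 (0.101) or severe drought replicate 3 (0.0523).

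In carbon fixation 7 of 13 genes fell and 2 rose (median -0.38). Maize fixes carbon dioxide first by phosphoenolpyruvate carboxylase in mesophyll cells. Its gene pep1 went from 8830, 12764 and 7805 to 3164, 4820 and 1985 units, -1.62 ± 0.26 (adjusted p = 1.67e-05). By contrast PPCK1, for the kinase that activates this enzyme, rose from 1092, 936 and 962 to 3484, 4862 and 3402 units, 1.95 ± 0.16 (adjusted p = 1.72e-09). The Rubisco activase gene rca1 fell from 2715 ± 381 to 1155 ± 185 units (-1.23 ± 0.15, adjusted p = 4.25e-07), and the plastid glyceraldehyde phosphate dehydrogenase genes gpa1 and gpb1 changed by -1.23 ± 0.15 and -1.62 ± 0.14 (adjusted p = 5.41e-07 and 3.91e-09). The malic enzyme gene me2 rose by 0.42 ± 0.13 (adjusted p = 0.00942, and 0.0583 without control replicate 2).

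Of 12 genes of chloroplast development and tetrapyrrole synthesis 8 fell and 4 did not pass (median -0.78). The GARP-type factor gene glk1, which in maize and other plants promotes chloroplast development, went from 161, 151 and 165 to 20.8, 12.5 and 17.2 units, at least 1.98-fold lower (adjusted p = 9.71e-11). Chlorophyll synthesis genes were lower too. The magnesium chelatase gene oy1 fell from 2011, 1889 and 1943 to 563, 753 and 406 units, -1.80 ± 0.19 (adjusted p = 4.11e-08), and les22, for uroporphyrinogen decarboxylase, changed by -0.93 ± 0.13 (adjusted p = 3.61e-06). The thylakoid translocase gene hcf106 changed by -1.16 ± 0.13 (adjusted p = 2.09e-07). LPE1, for a leaf membrane permease, went from 538, 640.0 and 704 to 48.3, 34.1 and 50.2 units, at least 7.79-fold lower (adjusted p = 2.21e-12).

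In lignin synthesis 4 of 5 genes fell and pal3 did not pass (median -1.29). The alcohol dehydrogenase gene cad, for the last step to lignin monomers, went from 2476, 1915 and 2068 to 731, 340.2 and 362 units, -2.24 ± 0.27 (adjusted p = 3.65e-07). The coenzyme A ligase gene 4CL changed by -1.32 ± 0.21 and the reductase genes cncr1 and ccr2 by -1.29 ± 0.17 and -1.18 ± 0.28 (adjusted p = 1.74e-05, 1.05e-06 and 0.00111). Signals of pal3, for the ammonia-lyase at the entry of the pathway, were 5153, 4841 and 4716 units in control and 5275, 4334 and 4768 in severe drought, which overlap (adjusted p = 0.847). In the pathway of benzoxazinoids, the defence compounds of grasses, bx6 fell from 1883, 2563 and 3218 to 237, 401 and 272 units, -3.06 ± 0.21 (adjusted p = 6.79e-11). The glucosidase gene glu1, whose product frees the active compounds, fell from 1802 ± 859 to 154 ± 53.1 units (-3.47 ± 0.32, adjusted p = 9.13e-09). Its relative glu2 rose by 0.48 ± 0.19 (adjusted p = 0.0339), a call lost without control replicate 1 (0.0561) or 2 (0.123) and without severe drought replicate 1 (0.0782) or 3 (0.169). The first enzyme's gene bx1 (-0.34 ± 0.24, adjusted p = 0.233) and igl1 (-0.02 ± 0.14, adjusted p = 0.922) did not pass (list median -0.34, and -1.52 over all probe sets of the genes).

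In glycolysis and fermentation 9 of 18 genes fell and 4 rose (median -0.23, and -0.08 with bounds). The cytosolic glyceraldehyde phosphate dehydrogenase gene gpc3 fell from 2483, 2058 and 1862 to 125, 62.9 and 70 units, -4.61 ± 0.31 (adjusted p = 7.06e-11), with its probe sets from -4.61 to -2.73. Another, gpc4, changed by -2.57 ± 0.22 (adjusted p = 2.86e-09). The pyruvate dehydrogenase gene PDHE1-B changed by -1.77 ± 0.13 (adjusted p = 3.66e-10). Higher were pdc2, for pyruvate decarboxylase, at 75.5, 43.7 and 35.9 units in control and 558, 273 and 344 in severe drought (at least 3.78-fold, adjusted p = 3.81e-07), and the alcohol dehydrogenase gene adh1, 1.34 ± 0.20 (adjusted p = 4.99e-06). These are the enzymes of ethanol fermentation. The phosphofructokinase gene pfk1 rose by 1.36 ± 0.15 (adjusted p = 7.67e-08) and the isomerase gene gpi by 0.46 ± 0.13 (adjusted p = 0.00498, and 0.0781 without replicate 2 of both groups). The haemoglobin gene Hb2 went from 222, 172 and 176 to 4.83, 13.5 and 1.45 units, at least 2.35-fold lower (adjusted p = 4.49e-07).

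Regulators moved both ways, with 11 of 25 tested transcription factor genes higher and 11 lower (median -0.31), from 64 on the array. The AP2-type gene gl15, which keeps maize leaves in the juvenile state, was at least 3.74-fold lower (adjusted p = 1.28e-06), and rs2, a MYB gene of leaf patterning, changed by -1.21 ± 0.12 (adjusted p = 1.83e-08). The MYB gene myb42 rose by 1.32 ± 0.20 (adjusted p = 1.03e-05) and the MADS-box gene m19 by 1.21 ± 0.14 (adjusted p = 2.18e-07). Of 19 protein kinase genes 5 rose and 3 fell (median 0.07), with the calcium-dependent kinase gene cdpk1 at 1.48 ± 0.20 (adjusted p = 1.42e-06). In oxylipin and jasmonate synthesis 1 of 9 genes rose, the lipoxygenase gene lox3 (1.69 ± 0.31, adjusted p = 8.86e-05), and 3 fell, among them lox1 (at least 1.68-fold lower, adjusted p = 0.000405). The list's median was -0.04 (0.00 with bounds, and -0.61 over all probe sets of the genes), and with the replicate block 2 genes rose.

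Of 14 ribosomal protein genes 4 fell and 10 did not pass (median -0.16), with rps21b at -0.80 ± 0.18 and rpl29 at -0.72 ± 0.13 (adjusted p = 0.00082 and 8.46e-05). Of 10 translation factor genes 4 rose and 6 did not pass (median 0.24), with eif3 at 0.66 ± 0.14 (adjusted p = 0.000401). Protease and senescence genes rose in 3 and fell in 1 of 11 cases (median 0.17). Of 9 genes for membrane pumps and ion transporters 2 rose and 2 fell (median -0.05), and of 4 ethylene genes 2 rose (median 0.21). Of 3 tested anthocyanin genes 1 rose and 1 fell (median -0.39), and of 2 genes of thiamine synthesis 1 fell (median -0.51).

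Some of the strongest changes belong to probe sets that the annotation used here gives no gene name. The probe set Zm.9861.1.A1_at went from 2.32, 45.1 and 2.65 units to 3116, 5651 and 3995, at least 41.6-fold higher (adjusted p = 2.45e-11). The probe set Zm.12616.1.S1_at went from 2.59, 12 and 13.4 units to 2897, 2737 and 4003, at least 31.9-fold higher (adjusted p = 2.61e-13). In the other direction Zm.5377.1.A1_at had signals of 3941, 3733 and 3917 units in control and 42.7, 30.1 and 30 in severe drought, at least 48.2-fold lower (adjusted p = 3.08e-11). In Ye478 this probe set had a mean of only 46.6 units in control. Signals of Zm.14513.9.S1_at were 1884, 1413 and 1497 units in control and 75.5, 2.94 and 7.52 in severe drought, at least 19.8-fold lower (adjusted p = 2.66e-06).

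The severe drought arrays were also set against those of moderate drought, a test that shares the severe drought arrays with the comparison above. At this step 915 probe sets were higher (7.56%) and 1266 lower (10.5%), 18.0% in all. With the replicate block 1563 were higher, without severe drought replicate 3 it was 564 and without Han21 control and severe drought replicate 3 it was 534. Some of the protective genes had means near their severe level. Means of dhn2 were 3877 ± 400.3 units in moderate and 4931 ± 302 in severe drought (log2 difference 0.35 ± 0.18, adjusted p = 0.183), those of GBF1 1751 ± 273 and 1961 ± 93.7 (0.17 ± 0.18, adjusted p = 0.571) and those of hsp101 1346 ± 239 and 1439 ± 170.3 (0.10 ± 0.21, adjusted p = 0.79). In the list of seed storage and oil-body proteins 3 genes were higher and 1 was lower in severe than in moderate drought. Signals of esp1 rose from 152 ± 158 to 2797 ± 718 units (4.59 ± 0.58, adjusted p = 7.83e-06). The lower one was ole1, at 20.4 ± 11.5 and 5.15 ± 1.66 units (adjusted p = 0.026). The channel gene tip3a rose from 53.4 ± 34.2 to 775 ± 400.3 (3.73 ± 0.54, adjusted p = 4.58e-05). The mean of mlg3 was 1303 ± 154 units in moderate and 5904 ± 952 in severe drought (2.17 ± 0.57, adjusted p = 0.011).

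Other genes reached their low or high level at different degrees of drought. The wall gene bk2 and the lignin gene cad had means in moderate drought that were not below control. Signals of bk2 averaged 716 ± 140.0 units in control, 839 ± 122 in moderate and 90.8 ± 22.9 in severe drought, and the last step was -3.16 ± 0.19 (adjusted p = 7.38e-10). For cad the means were 2153 ± 290.0, 2336 ± 638 and 478 ± 219.6 units, with a last step of -2.34 ± 0.27 (adjusted p = 2.12e-06). In the wall list 17 of 24 genes were lower in severe than in moderate drought and 1 higher (median -1.32), and all 5 lignin genes were lower (median -1.52). Other genes had low means in moderate drought already. The gene pcna2 averaged 74.6 ± 7.06 units there and 77.7 ± 24.1 in severe drought (0.02 ± 0.20, adjusted p = 0.965). The means of Lsi6 were 161 ± 44.7 and 149 ± 10.5 units (-0.08 ± 0.27, adjusted p = 0.882) and those of the desaturase gene fad7 154 ± 10.9 and 156 ± 53.1 units (-0.03 ± 0.25, adjusted p = 0.955). Both wip1 and sat1 rose at the last step, wip1 from 126 ± 8.84 to 647 ± 75.6 units (2.31 ± 0.32, adjusted p = 2.86e-05) and sat1 from 581 ± 29.2 to 2320 ± 784 (1.94 ± 0.22, adjusted p = 1.96e-06). The plastid glutamine synthetase gene gln1 was at 1898 ± 278 units in moderate drought, against 1956 ± 225 in control and 553 ± 156 in severe drought (-1.80 ± 0.19, adjusted p = 4.63e-07).

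**Figure D4:**
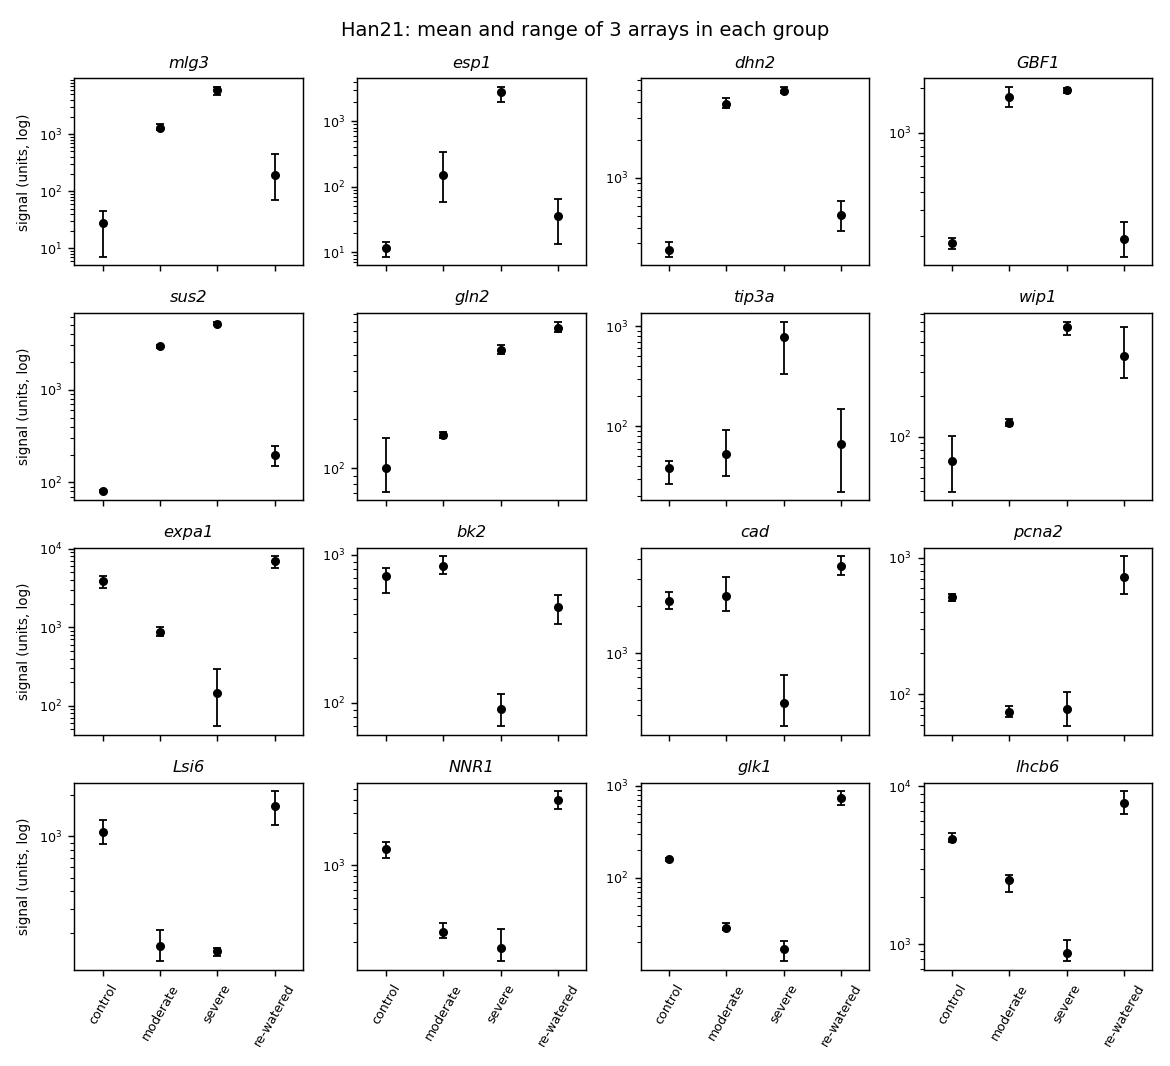
Mean signal (vertical log axis, units) of 16 genes in Han21 control, moderate drought, severe drought and re-watered plants; bars span the 3 arrays of a group. The dehydrin gene dhn2 is high in both droughts, tip3a in severe drought, and bk2 and cad are low in severe drought, while pcna2, Lsi6 and glk1 are low in both.

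After re-watering, 1906 probe sets were higher (15.7%) and 2328 lower (19.2%) than in control, 35.0% in all; this test shares the control arrays. For several genes the difference from control did not pass. The mean of expa1 was 7052 ± 1230 units after re-watering and 3898 ± 698 in control (log2 difference 0.85 ± 0.49, adjusted p = 0.19), and that of GBF1 191 ± 54.6 and 179.9 ± 15.7 (0.05 ± 0.18, adjusted p = 0.856). The mean of glb1 was 10.4 ± 16 and 8.11 ± 6.89 units, with both groups under the filter level (adjusted p = 0.827). Others stayed above control. Of the 4 dehydrin and LEA genes 3 were higher than control after re-watering (median log2 difference 1.44). One was dhn1 (adjusted p = 0.0136), a call lost without control replicate 1 (0.062) or 3 (0.0835). The signal of sat1 averaged 1891 ± 455 units (2.28 ± 0.22, adjusted p = 8.15e-08), that of gln2 736 ± 58.9 (2.92 ± 0.28, adjusted p = 7.53e-08) and that of BCH2 4157 ± 264 (1.47 ± 0.10, adjusted p = 4.14e-10). Some genes that had been low in severe drought were above control, such as glk1 at 743 ± 125 units (2.18 ± 0.20, adjusted p = 4.43e-08), PDHE1-B at 1442 ± 28.6 (1.60 ± 0.13, adjusted p = 8.27e-09) and NNR1 at 3999 ± 756 (1.49 ± 0.26, adjusted p = 0.000122). The aquaporin gene pip1e, which had changed by 0.63 in severe drought, was at 3900 ± 770.0 units after re-watering (3.33 ± 0.23, adjusted p = 3.48e-10). Some secondary wall genes remained below control, with bk2 at 444 ± 97.1 units (-0.69 ± 0.19, adjusted p = 0.00766) and cesa10 at 631 ± 117 (-0.86 ± 0.21, adjusted p = 0.00375). The log2 difference of CesA12 was -0.86 (adjusted p = 0.00226). For cesa11 the difference did not pass (adjusted p = 0.052, and 0.00513 with the replicate block). Of the 5 lignin genes, in contrast, 3 were higher than control and 1 was lower (median 0.69).

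The response of Han21 to severe drought was compared with that of Ye478 as the difference between the log2 changes of the lines. It was higher in Han21 for 1055 probe sets (8.71%) and lower for 904 (7.46%), 16.2% in all, and with the replicate block these counts were 1683 and 1358. Without Han21 control and severe drought replicate 2 the first was 672. Some seed-type genes were among those with the smaller rise in Han21. In the list of seed storage and oil-body proteins, 2 of 5 tested genes had the lower response in Han21, with a list median of -0.04. The difference did not pass for esp1 and glb1. For tip3a the means were 60.5 and 10432 units in Ye478 control and severe drought, against 38 ± 9.85 and 775 ± 400.3 in Han21 (difference -3.34 ± 0.77, adjusted p = 0.00462). For tip3b, whose Han21 arrays were all under the filter level, the Ye478 means were 27.7 and 1218 units (difference -5.01 ± 0.48, adjusted p = 4.8e-07). For ole1 they were 8.85 and 144 units, with both Han21 groups under that level (difference -3.10 ± 0.55, adjusted p = 0.0005). The dehydrin genes dhn1 (-0.08 ± 0.85, adjusted p = 0.965) and dhn2 (0.09 ± 0.25, adjusted p = 0.86) did not pass this test. The cell wall invertase gene incw1 went from 151 to 2022 units in Ye478 (difference -2.61 ± 0.30, adjusted p = 4.73e-06). In the other direction asn1 had a larger rise in Han21 (2.34 ± 0.26, adjusted p = 3.58e-06), from 1016 to 12123 units in Ye478, where its control signal was higher. Falls that were smaller in Han21 included tub5, from 3543 to 129 units in Ye478 (difference 2.16 ± 0.36, adjusted p = 0.000242), and cesa10, from 591 to 20.8 (1.51 ± 0.30, adjusted p = 0.00152). For myb42 the change was upward in Han21 and the Ye478 means were 161 and 91.5 units (difference 2.11 ± 0.29, adjusted p = 3.39e-05).

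**Figure D5:**
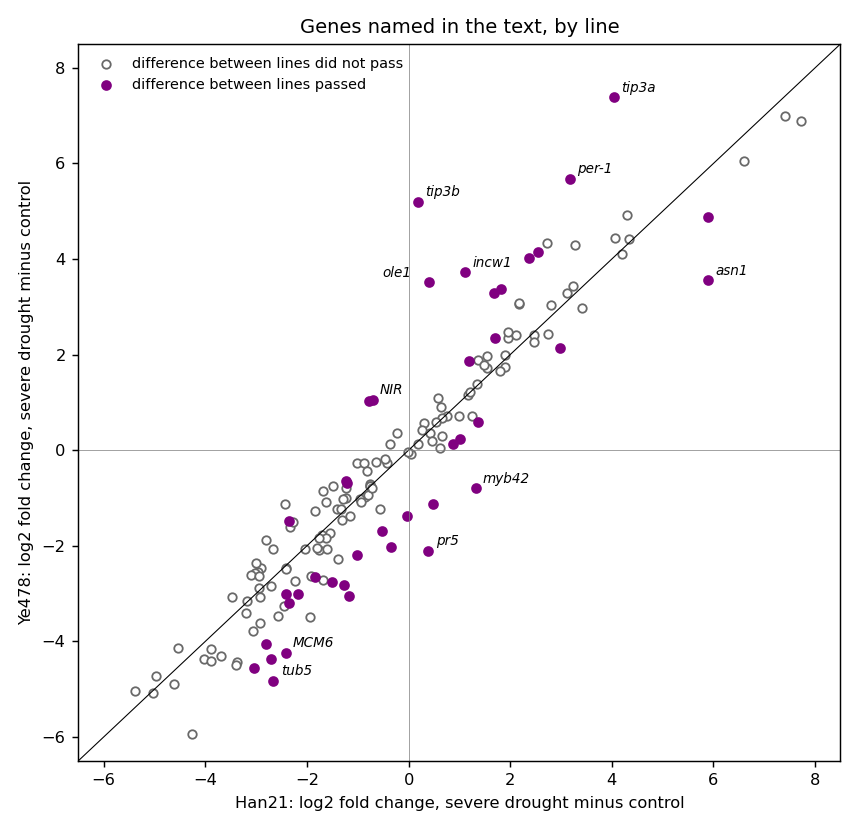
Log2 fold change from control to severe drought of the 164 genes named in the text, in Han21 (horizontal axis) and Ye478 (vertical axis). Filled points are the 41 genes whose difference between lines passed the test, open points the others, and the line marks equal change; tip3a, tip3b and ole1 lie above it and asn1 and tub5 below.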

How the data were processed

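The deposited values are signal intensities on a linear scale, 1 per probe set and array. Per the submitters' processing notes the authors used GCOS and MAS5, and the trimmed mean (2% at each end) was 500.1 to 500.2 units on every array of the deposited table. No further normalization was applied. After 113 control probe sets were removed, 12111 of 17621 probe sets lay above the 40th percentile on at least 3 of 24 arrays. Log2 of intensity plus 4.56 (the 10th percentile) was fitted with limma 3.58.1 in R 4.3.3, with a mean for each of 8 groups and eBayes with trend (16 residual and 5.01 prior degrees of freedom). P-values were adjusted by Benjamini-Hochberg. Python 3.11.15, pandas 2.3.3, numpy 2.4.6 and matplotlib 3.10.9 were used for the rest. The fit was also run on simulated data, with residuals reshuffled over arrays within each probe set. That breaks the shared deviations of same-numbered arrays, so the run cannot show how the fit handles them.

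Of the probe sets 1452 carry 1 gene in the array annotation of 2007, 1 carries several and 16168 none. Through Entrez IDs 1060 of 1108 genes were found in the RefSeq gene table for Zm-B73-REFERENCE-NAM-5.0, from which only names were taken. An "at least" fold sets the brighter group's mean log2 signal against the dimmer group's, each dim array at its filter level. Absence calls of the array software were not used here.

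The comparison, gene lists and named genes were chosen with earlier results of these data known. The naming rule takes the largest rises and falls among called genes with group ranges apart, and the strongest members of each list; other genes were named after their values were seen. Same-numbered arrays deviated together, but the titles do not say whether the numbers pair the samples. A fit with the numbers as a block was run as an alternative. The others were quantile normalization, median centring, other filters and constants, eBayes without trend, a fit of 6 arrays and leaving out arrays. List medians were also taken over all probe sets of the genes. A planned search of promoters for motifs was not run. The number of arrays limits the precision.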

Additional observations from a re-analysis of the deposited data

Results flagged for a closer look

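The severe drought response of Han21 differed from that of Ye478, by a test of the difference itself, in 41 of the 164 genes named above. Over all tested probe sets the share was 16.2%. Of 767 tested genes with an informative symbol, the response was higher in Han21 for 99 and lower for 68. Part of the 164 genes were named after their values were seen, so the count depends on that choice. Each value below is the Han21 log2 change minus the Ye478 change. A positive value, found for 25 genes, means a larger rise or smaller fall in Han21, or changes of opposite sign with Han21 higher. A negative value, found for 16, means the reverse. Opposite signs occurred for myb42 and NIR, for example.

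Among seed-type, chaperone and water channel genes the differences were -2.50 for per-1, -3.10 for ole1, -3.34 for tip3a, -5.01 for tip3b, -1.57 for hsp18a, -1.66 for hsp18f, 1.19 for bip1 and 1.25 for crt2. For the small heat shock protein genes, Ye478 means went from 125 to 1349 units for hsp18a and from 34.9 to 623 for hsp18f. In pigment, sugar and starch metabolism they were -0.64 for BCH2, 1.02 for sus2, -2.61 for incw1, 0.75 for ss1 and 1.66 for amy5. In nitrogen and sulfur metabolism they were 2.34 for asn1, -1.77 for NIR, -0.59 for gdh1 and -1.60 for sat1. The Ye478 means of NIR were 677 units in control and 1425 in severe drought, while Han21 fell.

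For redox and defence genes the values were -0.68 for cat1, 1.55 for PER42, -1.81 for aox2, 0.85 for gst23, 2.49 for pr5 and -1.60 for lox3. The pathogenesis-related gene pr5 went from 1758 to 405 units in Ye478. Growth genes gave 1.51 for cesa10, 1.24 for CesA12, 0.85 for cesa2, 0.79 for cesa5, 0.59 for tua5, 2.16 for tub5, 1.82 for MCM6 and 1.16 for cenH3. The remaining values were 0.83 for FAD8, 0.81 for gl1, -0.86 for RR5, 1.87 for ccr2, 1.33 for pal3, 1.69 for bx1, 1.61 for glu2, 0.77 for pfk1, -0.52 for rs2 and 2.11 for myb42. The entry genes pal3 and bx1, whose change did not pass in Han21, went from 4613 to 1788 and from 4830 to 1208 units in Ye478.

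Some of these calls did not hold without a single Han21 array. The adjusted p without control replicate 1 was 0.0788 for gdh1, 0.103 for gl1, 0.0672 for rs2 and 0.0668 for ss1. Without control replicate 2 it was 0.0615 for gdh1, 0.0859 for gl1, 0.0614 for rs2, 0.0514 for gst23 and 0.0701 for tua5. Without control replicate 3 it was 0.0512 for gst23 and 0.0522 for rs2. Without severe drought replicate 1 it was 0.0715 for rs2, 0.0566 for ss1 and 0.0851 for tua5. Without severe drought replicate 2 it was 0.0851 for gdh1, 0.0961 for gl1, 0.0661 for rs2 and 0.0697 for ss1, and without severe drought replicate 3 it was 0.0631 for gdh1 and 0.0786 for gl1. Other settings also ended calls. For gl1 the adjusted p was 0.102 under quantile normalization, 0.0539 with median centring, 0.0604 with 4 times the constant and 0.0561 with no filter. Quantile normalization gave 0.0753 for tua5 and 0.0502 for rs2, and no filter gave 0.0522 for rs2 and 0.0537 for gdh1. With the replicate block none of the 41 calls was lost and 9 further named genes passed: apx (0.0283), cesa11 (0.0158), gln1 (0.0105), gln3 (0.0114), gpb1 (0.0418), gpc4 (0.0211), his1a (0.00202), psy2 (0.0219) and sus1 (0.00147). Leaving out both Han21 arrays of a replicate number also ended the calls of FAD8, RR5, amy5, cesa2, lox3 and pfk1. Of these 41 genes, the arrays of per-1, ole1, tip3b and MCM6 in Han21 lay mostly or all under the filter level.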

How the results depend on the processing

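No named gene called between severe drought and control changed direction under an alternative. List medians near 0 did: that of heat shock proteins and chaperones was 0.01, and -0.04 with median centring, that of membrane pumps and ion transporters -0.05, and 0.08 under quantile normalization, and that of all tested probe sets 0.03, and -0.01 with median centring. With all probe sets of the genes in place of the brightest, 7 list medians were counted as moved and 27 as the same. Those of histones, benzoxazinoids and oxylipins became -1.60, -1.52 and -0.61, from -0.56, -0.34 and -0.04. The counts for severe drought against control were 3490 higher and 3478 lower. They ranged from 2928 and 2646 with a filter at the 60th percentile to 3966 and 3848 with the replicate block. When arrays were left out they ranged from 2783 to 3308 higher and 2863 to 3348 lower, and from 2864 to 3124 at 2-fold or more. Quantile normalization gave 3860 higher and 3392 lower and median centring 3239 and 3658, so which count is larger is not settled.

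Against moderate drought, the replicate block gave 1563 higher, and counts without arrays were 534 to 920 higher and 922 to 1261 lower, the lowest without replicate 3. For the difference between the lines the block gave 1683 higher and 1358 lower, and counts without arrays were 672 to 1031 and 651 to 866. For re-watering against control they were 1367 to 1918 and 1913 to 2329. The cause of these shifts was not tested. Only Han21 control and severe drought arrays were left out, and the last 3 comparisons' alternatives, other than the block, were chosen after seeing the data.

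Of 203 named genes, the call of 29 changed under at least 1 alternative, 29 when arrays were left out and 12 under another alternative. Of the genes printed above, the replicate block changed the call of hon101 and no other call between severe drought and control.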
